A study of Mus musculus with 8 samples.

Results

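Splenocytes of HMGA1a transgenic (TG) mice were compared between 12 and 2 months of age. The members are the 4 arrays, of 8 in the series, whose titles give the TG genotype, 2 at each age and each from another mouse. All mice were C57/BL6 males, and a total RNA sample per mouse was hybridised to an Affymetrix Mouse 430 2.0 array. The other 4 arrays hold wild type (WT) littermates of the same ages, again 2 per age, and serve here for side by side values. Per the series' design text every TG mouse goes on to lymphoid tumours, so that the younger age lies before onset and the older one after tumours have formed. The labels used here name neither the promoter that drives the transgene nor the tumour load of any single spleen. Arrays with the same biologic replicate number were treated as a pair, and values below are given for replicate 1 first and replicate 2 second.

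HMGA1 is a small chromatin protein that binds the minor groove of AT-rich DNA and bends it, which helps transcription factors assemble at promoters and enhancers. It is abundant in embryonic cells and in many cancers and low in most resting adult tissues. The spleen holds follicular and marginal zone B cells, T cells, plasma cells, dendritic cells, red pulp macrophages and, in mice, blood-forming cells, so its RNA mixes all of these. In bulk RNA, fewer cells of a type and less RNA per cell cannot be told apart.

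The signal is the MAS5 intensity of a probe set on a linear scale, where every array has been scaled to the same trimmed mean of 150.001. The median signal of the 8 arrays ran from 44.9 to 49.5, and 25.0% to 28.7% of probe sets were under 16. The labelled splenocytes carried the lymphocyte genes that define them, with the B cell receptor subunit Cd79a at 1796 and 6092 at 12 months against 3515 and 4395 at 2 months and the T cell receptor subunit Cd3e at 803 and 287 at 12 months against 518 and 597 at 2 months in TG mice. For Gapdh the 3′ probe set divided by the 5′ probe set, which measures how complete the RNA was, gave 1.07 and 1.48 at 2 months and 0.843 and 1.21 at 12 months, lower at 12 months in both pairs. In WT mice the quotient was 1.01 and 1.39 at 2 months and 1.25 and 1.73 at 12 months, and its part in the results was not tested. Differences between replicate numbers ran alike in all 4 groups, with a correlation across genes between 0.464 and 0.654 over the 6 pairs of groups. The level of Hmga1 itself was not analysed here.

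Between 2 and 12 months, RNA of a cytotoxic granule protease (Gzma), of a gut-homing receptor (Ccr9) and of surface receptors of resting B cells (Fcer2a, Cr2) fell in TG spleens. RNA of Derl3 and Ckap4, whose proteins sit in the endoplasmic reticulum, of galectin-1 (Lgals1) and of a macrophage complement receptor (Vsig4) rose. Of 11189 genes, 21 (0.188% of those tested) passed the test at an adjusted p under 0.05 (limma with the replicate number as a block, Benjamini-Hochberg adjustment). 11 rose (0.0983%) and 10 fell (0.0894%). The TG arrays of the 2 ages did not overlap for 20 of the 21, where 27.7% of all genes tested had no overlap. Without the block, 1 gene passed, Gzma, with an adjusted p of 0.0319. Without either array of the TG mice at 2 months, and without either array of the WT mice at 2 months, 0 genes passed. Without either WT array of 12 months, 9 passed, without TG 12 months replicate 1, 87 passed, and without TG 12 months replicate 2, 372 passed. The 21 genes kept their direction under every alternative in which they were measured.

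**Figure D1:**
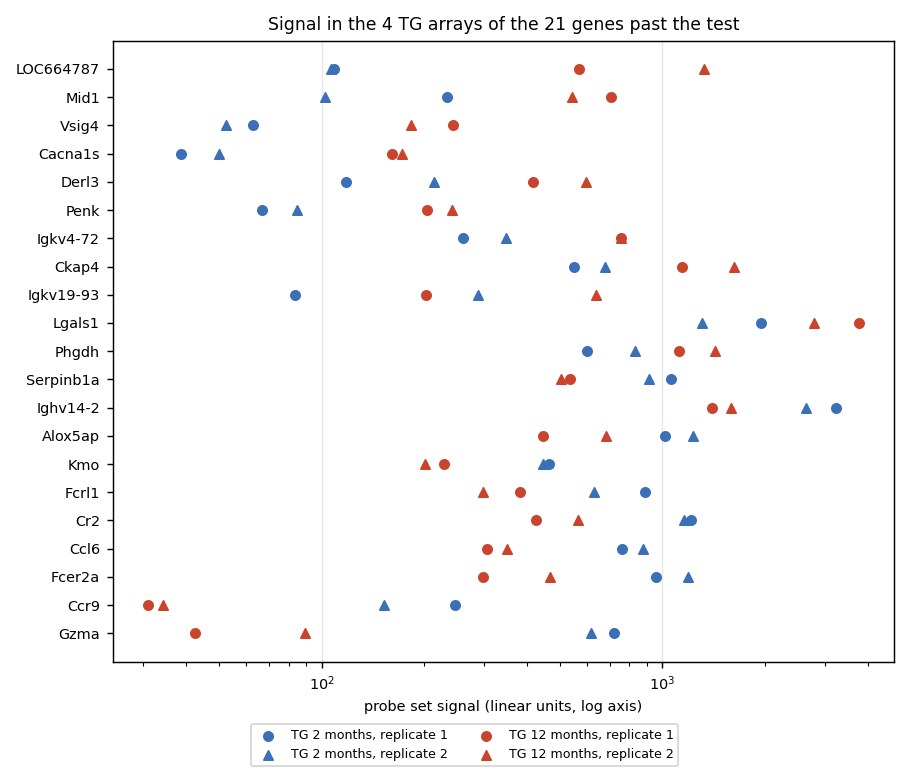
Probe set signal (log axis) of the 21 genes that passed the test, on each of the 4 TG arrays. Rows run from the largest fall at the bottom (Gzma) to the largest rise at the top (LOC664787), and the arrays of 2 months (blue) and 12 months (red) lie apart in 20 of the 21 rows.

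Gzma and Ccr9 fell by the largest amounts. Gzma encodes granzyme A, a protease of natural killer cell and cytotoxic T cell granules. Its signal in TG mice was 720.0 and 616 at 2 months and 42.5 and 89.6 at 12 months. Both 12-month spleens thus sat far below both 2-month spleens, and the log2 change of -3.12 ± 0.23 (SE), adjusted p = 0.0130, was the largest fall among the genes that passed. Ccr9, the receptor for the chemokine that draws lymphocytes to the small intestine, gave 246 and 152 at 2 months and 31.0 and 34.4 at 12 months. The 12-month values were close to each other and far under the younger pair, with a log2 change of -2.11 ± 0.20 (SE), adjusted p = 0.0182. A second Ccr9 probe set, dimmer on average, changed by -0.765.

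Fcer2a, Cr2 and Fcrl1, surface receptors known from B cells, also fell. Fcer2a encodes CD23, the low-affinity IgE receptor of follicular B cells, and gave 959 and 1189 at 2 months and 298 and 467 at 12 months. The older spleens were both lower, and the log2 change was -1.48 ± 0.14 (SE), adjusted p = 0.0182. Cr2 encodes CD21, the complement receptor that lowers the threshold for B cell activation and marks marginal zone and follicular B cells. It stood at 1210.4 and 1156 at 2 months and 425 and 564 at 12 months, again without overlap, a log2 change of -1.25 ± 0.15 (SE), adjusted p = 0.0326. Fcrl1, a B cell co-receptor of the Fc receptor-like family, read 888 and 628 at 2 months and 382 and 297 at 12 months. That is a log2 change of -1.11 ± 0.13 (SE), adjusted p = 0.0314, while a second probe set for Fcrl1 gave -0.448.

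Of the remaining genes that fell, 4 could be named. Ccl6, a chemokine of myeloid cells, had signals of 761 and 879 at 2 months and 305 and 349 at 12 months. Alox5ap, which presents arachidonic acid to 5-lipoxygenase for leukotriene synthesis, had 1017 and 1231 at 2 months and 446 and 684 at 12 months. Serpinb1a, an inhibitor of neutrophil serine proteases, had 1056 and 915 at 2 months and 536 and 504 at 12 months. For each of the 3, both older spleens lay under both younger ones, and the log2 changes were -1.28, -0.997 and -0.90, with adjusted p of 0.0314, 0.0326 and 0.0314 in limma. A dimmer second probe set for Serpinb1a gave -0.40. Kmo, the kynurenine 3-monooxygenase of tryptophan breakdown, went from 463 and 447 at 2 months to 228 and 201 at 12 months. Its log2 change was -1.03 ± 0.13 (SE), adjusted p = 0.0383, and the 4 values did not overlap between ages. Neutrophils are a known source of Serpinb1a and Alox5ap, and the summed signal of 16 neutrophil genes was 8669 and 28050 at 2 months and 10290 and 23120 at 12 months, and their part in these falls was not tested. The other gene that fell, an immunoglobulin heavy chain segment, is taken up with the antibody genes below.

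Genes that rose were led, among named genes, by Mid1. It encodes a microtubule-bound ubiquitin ligase, and its signal was 233 and 102 at 2 months and 709 and 544 at 12 months. Both older spleens were well above both younger ones, at a log2 change of 1.89 ± 0.19 (SE), adjusted p = 0.0191, and WT mice also had a higher mean at 12 months, by 1.38 ± 0.19 (SE). Vsig4, a complement receptor of tissue-resident macrophages that also restrains T cells, gave 62.9 and 52.4 at 2 months and 243 and 183 at 12 months. It was higher in each old spleen than in either young one, a log2 change of 1.63 ± 0.20 (SE), adjusted p = 0.0326.

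Derl3, Ckap4 and Phgdh rose as well. Derl3 is part of the machinery that pulls misfolded proteins out of the endoplasmic reticulum and is strongly expressed in secretory cells such as plasma cells. Its signal read 118 and 213 at 2 months and 416 and 596 at 12 months. Each older spleen was above each younger one, and the log2 change was 1.55 ± 0.13 (SE), adjusted p = 0.0177. Ckap4, a membrane protein that anchors the rough endoplasmic reticulum to microtubules, read 549.6 and 679 at 2 months and 1145 and 1619 at 12 months, a log2 change of 1.14 ± 0.14 (SE), adjusted p = 0.0326. Phgdh, the first enzyme of serine synthesis from glucose, read 599 and 830.0 at 2 months and 1122 and 1428 at 12 months. Its older spleens were both above its younger ones, by a log2 change of 0.83 ± 0.11 (SE), adjusted p = 0.0451.

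Lgals1 encodes galectin-1, a secreted sugar-binding protein that can trigger death of activated T cells, and its signal was 1950.5 and 1309 at 2 months and 3771 and 2780.1 at 12 months. The ages did not overlap, and the log2 change was 1.01 ± 0.10 (SE), adjusted p = 0.0191. Penk, which encodes the opioid precursor proenkephalin and is made by some lymphocytes, gave 66.6 and 84.4 at 2 months and 204 and 241 at 12 months, a log2 change of 1.39 ± 0.17 (SE), adjusted p = 0.0326. Cacna1s, the pore subunit of the skeletal muscle calcium channel, gave 38.7 and 50 at 2 months and 161 and 172 at 12 months, a log2 change of 1.60 ± 0.19 (SE), adjusted p = 0.0314. Both genes were low to moderate in the young spleens and higher in each old one. The largest rise among genes that passed belonged to LOC664787, a locus without an established name that the naming rule left out, at 109 and 106 at 2 months and 571 and 1324 at 12 months, a log2 change of 2.84 ± 0.28 (SE), adjusted p = 0.0182.

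The same contrast in WT littermates called 0 genes in limma, with a smallest adjusted p of 0.362 and 578 genes at an unadjusted p under 0.05 (5.17%), against 1497 (13.4%) in TG mice. Of the 21 genes, 17 had the same sign in WT mice, and all 21 had the larger size in TG mice, by which they had been chosen. In limma, 16 of the 21 had an unadjusted p under 0.05 in WT mice, Lgals1 among them with the opposite sign. The test of the difference between the age effects of TG and WT mice passed 0 of 11189 genes, with a smallest adjusted p of 0.218 and 911 genes at an unadjusted p under 0.05 (8.14%). Without the block, 213 genes (1.9%) had an unadjusted p under 0.05 in that test and 0 passed. Leaving out single arrays passed 4 genes without WT 2 months replicate 2 and 40 without TG 12 months replicate 2, and 0 without any of the other 6. For the WT contrast the counts were 7 without WT 2 months replicate 2, 5 without either TG array of 12 months and 0 without any of the other 5. With all arrays, no single gene thus passed the test that its change with age differs between genotypes.

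**Figure D2:**
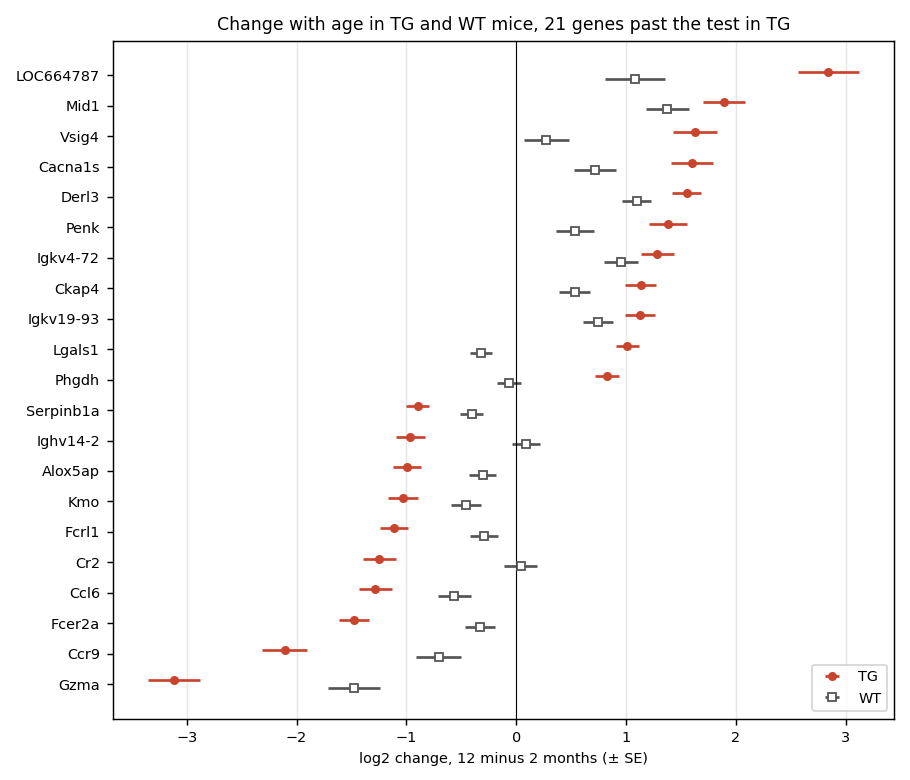
Log2 change from 2 to 12 months (± SE of the limma fit, 2 mice per group) in TG mice (red circles) and WT mice (open grey squares) for the 21 genes that passed the test in TG mice. 17 of the 21 lie on the same side of 0 in both genotypes, and Lgals1 lies above 0 in TG mice and below 0 in WT mice.

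The genes with the smallest p for that difference were Lgals1, Ube2d3, Phgdh and Plscr1 on the higher side and Cr2, Mgll, Fcer2a and Ackr3 on the lower side, with immunoglobulin segments left out. Among those, Ighv14-2 had a smaller p than Ackr3, with a difference of -1.05 ± 0.18 (SE), adjusted p = 0.598. Lgals1 had signals of 1462 and 1067 at 2 months and 1231 and 806 at 12 months in WT mice, a log2 change of -0.32 ± 0.10 (SE), so that the TG effect exceeded the WT effect by 1.33 ± 0.15 (SE), adjusted p = 0.218. Plscr1, a phospholipid scramblase that interferon induces, gave 125 and 131 at 2 months and 269 and 306 at 12 months in TG mice and 111 and 124 at 2 months and 124 and 108 at 12 months in WT mice. Its difference was 1.10 ± 0.22 (SE), adjusted p = 0.598. For Cr2, the WT signals were 1526 and 1346 at 2 months and 1352 and 1608 at 12 months, and the difference was -1.29 ± 0.22 (SE), adjusted p = 0.598. For Fcer2a the WT values were 1158 and 1582 at 2 months and 805 and 1429 at 12 months, and the difference was -1.15 ± 0.20 (SE), adjusted p = 0.598. Both B cell receptors thus read lower in each old TG spleen than in each old WT spleen.

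Gzma was among the genes that moved the same way in both genotypes, 17 of the 21. In WT mice its signal was 936 and 1002 at 2 months and 338 and 337 at 12 months, a log2 change of -1.48 ± 0.23 (SE), and the TG minus WT difference was -1.64 ± 0.33 (SE), adjusted p = 0.598. Derl3 in WT mice gave 136 and 202 at 2 months and 299 and 467 at 12 months, a log2 change of 1.10 ± 0.13 (SE). The WT changes were -0.71 ± 0.20 (SE) for Ccr9, -0.46 ± 0.13 (SE) for Kmo, 0.53 ± 0.14 (SE) for Ckap4 and 0.72 ± 0.19 (SE) for Cacna1s. Vsig4 in WT mice gave 52.4 and 36.0 at 2 months and 78.2 and 39.4 at 12 months, and its change of 0.28 ± 0.20 (SE) was small beside that in TG mice.

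The TG pairs differed from each other more than these 21 genes show. Across all 11189 genes the change in replicate 1 correlated with the change in replicate 2 at r = 0.182 (a description over genes measured on the same 4 arrays), and 54.9% of genes had the same sign in both pairs. Over 2-fold changes numbered 354 in replicate 1 and 195 in replicate 2, and 40 genes were over 2-fold in both pairs in the same direction, 21 higher and 19 lower. In WT mice 11 genes were over 2-fold higher and 5 over 2-fold lower in both pairs. The gene lists below are therefore given by pair as well as together.

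**Figure D3:**
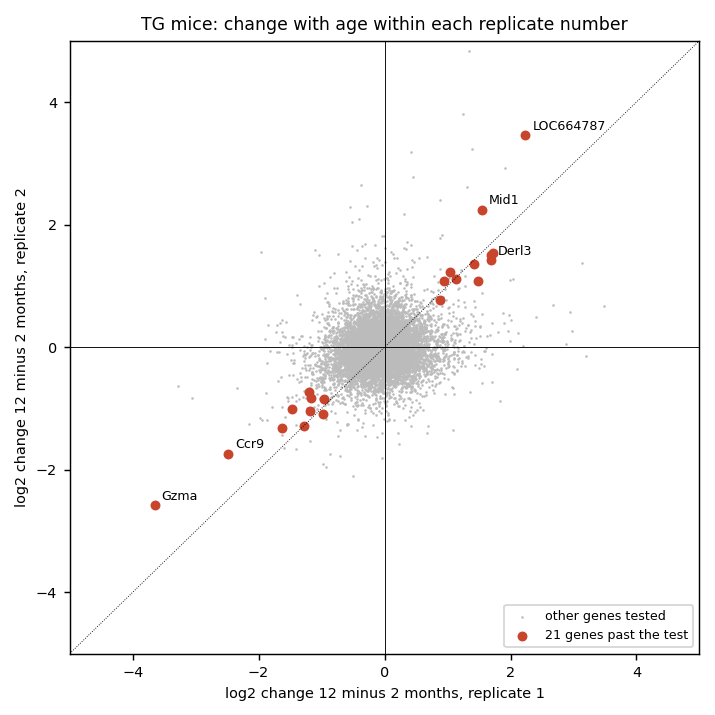
Log2 change from 2 to 12 months in TG replicate 1 (x axis) against TG replicate 2 (y axis) for 11189 genes, with the 21 genes that passed the test in red. Most genes cluster around 0, and genes far from 0 in a single pair lie close to an axis, while the 21 lie away from 0 on both axes and in the same direction.

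In what follows a list is described by its number of measured members, its median log2 change in TG mice, and the same over all genes tested, whose median was -0.04 (13.4% of them had an unadjusted p under 0.05). Of all genes tested, 43.7% had a log2 change above 0, 10.3% had both older TG arrays above both younger ones, and 17.4% had them below. A list's median over both pairs need not lie between the medians of the pairs, because it is taken over genes after averaging. Lists of genes that share cells or functions are not independent measurements of those cells.

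Plasma cell genes lay higher in both pairs. Of 14 measured, 13 had a positive change and 11 were higher in both old spleens than in both young ones, with a median of 0.54 (0.76 in replicate 1 and 0.43 in replicate 2). Derl3 alone passed the test. The summed signal of the list was 16680 and 18910 at 2 months and 26150 and 31190 at 12 months, and the part of plasma cell content in the rises of Derl3 and Ckap4 was not tested. Mzb1, an endoplasmic reticulum chaperone of antibody-secreting cells, had 4082 and 8409.7 at 12 months against 2202 and 2447 at 2 months and a log2 change of 1.33 ± 0.21 (SE), adjusted p = 0.0702. Txndc5, a disulfide isomerase, had 1771 and 1753 at 12 months against 828 and 1224 at 2 months and a change of 0.80 ± 0.15 (SE), adjusted p = 0.105. Edem2, which trims mannose from misfolded glycoproteins, gave a change of 0.61 ± 0.14 (SE), adjusted p = 0.168. WT mice had a median of 0.42 over the same genes, with 14 of 14 above 0 (51.4% of all genes were above 0 in WT mice), so a higher level at 12 months was seen in both genotypes.

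Antibody genes themselves went mostly the same way. 15 immunoglobulin segments and constant regions were counted, picked by gene name, and a further measured entry, Igk, lay outside this count. Of the 15, 12 were higher and 3 lower at 12 months, with a median of 0.67 (0.71 in replicate 1 and 0.55 in replicate 2). Igha and Iglv1, among the 3 lower, were lower in replicate 1 but higher in replicate 2. In WT mice the median was 0.74, and all 15 were higher. Of the 15 in TG mice, 2 kappa chain variable segments, Igkv4-72 and Igkv19-93, rose past the test. A heavy chain variable segment, Ighv14-2, fell past it. Igkv4-72 read 260.3 and 347 at 2 months and 758 and 754 at 12 months, and Igkv19-93 read 83.3 and 288 at 2 months and 203 and 639 at 12 months, higher within each pair though the ages overlapped. Ighv14-2 went from 3225 and 2636 to 1395 and 1586, below in both old spleens. The 3 log2 changes were 1.29, 1.12 and -0.96, with limma adjusted p of 0.0314, 0.0326 and 0.0451. Probe sets of such segments can bind several related segments, so single values are uncertain. Ighm, the constant region of IgM, had 14150 and 23840 at 12 months against 10595 and 17385 at 2 months, a log2 change of 0.44 ± 0.11 (SE), adjusted p = 0.190. The older value of replicate 2 is the highest signal on its array. The 7 other Ighm probe sets gave mean changes from 0.247 to 2.27. The larger ones came mainly from replicate 1, such as 3.06 there against -0.07 in replicate 2, and 2.68 against 0.27. The probe set with a mean of 2.27 gave 3.23 in replicate 1 and 1.31 in replicate 2.

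Genes for protein folding in the endoplasmic reticulum, on which secretion depends, had 21 of 23 members above 0 but 7 without overlap. Their median was 0.31, or 0.51 in replicate 1 and -0.01 in replicate 2, and 0 passed the limma test and 8 had an unadjusted p under 0.05. Creld2, a secreted stress-induced chaperone, read 325 and 408 at 2 months and 982 and 762 at 12 months, a log2 change of 1.21 ± 0.19 (SE), adjusted p = 0.0703. Edem1 had 1532 and 1083 at 12 months against 556 and 683 at 2 months (1.04 ± 0.20, adjusted p = 0.119, and 0.477 for a second probe set), and Hsp90b1, the chaperone GRP94, had 5022 and 3055 at 12 months against 2676 and 2396 at 2 months (0.63 ± 0.18, adjusted p = 0.232). All 3 were higher in each old spleen. Hspa5, the chaperone BiP, had 5988 and 5761 at 12 months against 3821 and 5237 at 2 months, a change of 0.39 ± 0.15 (SE), adjusted p = 0.332. In WT mice 21 of 23 folding genes were above 0 as well, 6 of them without overlap. The WT median was 0.11 (0.25 in replicate 1 and 0.02 in replicate 2). Creld2 changed by 0.72 ± 0.19 (SE) in WT mice, Edem1 by 0.60 ± 0.20 (SE) and Hsp90b1 by 0.27 ± 0.18 (SE).

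Promoters of several of these genes hold the endoplasmic reticulum stress response element, a composite site read by NF-Y and ATF6, which was searched as CCAAT, any 9 bases, then CCACG on both strands in RefSeq windows (GRCm38.p6) from 250 bases before to 50 bases after each gene start. It was found in 7 of 20 folding genes with a window (35.0%), against 37 of all 27025 genes with a window (0.137%) and 39 of all 32851 windows (0.119%). Among the 13 plasma cell genes with a window 1 held it (7.69%), and among the 13 genes past the test with a window also 1, in both cases Derl3. Stretches upstream of the gene start are shown 5′ to 3′ on the gene's strand, for Derl3, which rose, and for 3 folding genes of the list, with the match in capitals, so that the shared element can be compared. They lie at chr10:75893192-75893310 on the plus strand, chr15:88819470-88819588 on the plus strand, chr10:86705588-86705694 on the minus strand and chr2:34771975-34772089 on the plus strand. A match describes letters only.
Derl3: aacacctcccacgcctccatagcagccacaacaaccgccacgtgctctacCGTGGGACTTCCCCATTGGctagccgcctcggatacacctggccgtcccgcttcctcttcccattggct
Creld2: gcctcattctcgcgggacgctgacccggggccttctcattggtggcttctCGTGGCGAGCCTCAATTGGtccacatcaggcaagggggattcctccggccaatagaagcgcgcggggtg
Hsp90b1: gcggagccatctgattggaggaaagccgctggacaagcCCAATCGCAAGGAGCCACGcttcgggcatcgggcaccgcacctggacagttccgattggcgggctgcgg
Hspa5: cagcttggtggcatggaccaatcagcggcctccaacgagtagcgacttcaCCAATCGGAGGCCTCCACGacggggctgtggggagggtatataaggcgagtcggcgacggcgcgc
In Derl3 and Creld2 the element reads on the opposite strand, so the capitals begin with the reverse complement of its last bases, and in the stretches of Hsp90b1 and Hspa5 it reads on the gene's strand. The Hsp90b1 window holds a further match on the opposite strand, nearer the gene start and outside the stretch shown.

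B cell genes beyond Fcer2a and Cr2 split by mouse. The mature B cell list had 14 of 18 measured members below 0 and 7 below without overlap, and 2 passed, Fcer2a and Cr2. Its median was -0.25, below 0 in replicate 1 and near it in replicate 2 (-0.61 in replicate 1 and 0.05 in replicate 2). The summed signal of the list was 33320 and 31670 at 2 months and 21860 and 38890 at 12 months, and the part of B cell content in the falls of Fcer2a and Cr2 was not tested. Cd79a, given above, was lower in the old spleen of replicate 1 and higher in that of replicate 2. Ebf1, a transcription factor of B cell identity, had a change of -0.58 ± 0.17 (SE), adjusted p = 0.261, and -0.386 to -0.284 in 3 other probe sets. Cxcr5, the receptor that guides B cells into follicles, had 564 and 639.7 at 12 months against 923 and 749 at 2 months and a change of -0.46 ± 0.14 (SE), adjusted p = 0.266. Fcer2a and Cr2 were lower in both pairs all the same. Among antigen presentation genes of MHC class II, 9 of 11 were below 0 (median -0.17), and H2-Ob, the B cell inhibitor of peptide loading, gave 953 and 972 at 12 months against 1856 and 1331 at 2 months with a change of -0.70 ± 0.16 (SE), adjusted p = 0.165.

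Germinal centre genes went opposite ways in the TG pairs. The median of 6 measured genes was 0.50 (1.15 in replicate 1 and -0.14 in replicate 2), and 0 passed the limma test and 2 had an unadjusted p under 0.05. The WT medians were 0.36 in replicate 1 and -0.01 in replicate 2. S1pr2, a receptor that holds B cells in germinal centres, was 79.5 and 84.4 at 2 months and 359.5 and 128 at 12 months, a change of 1.25 ± 0.40 (SE), adjusted p = 0.282. Mef2b, a transcription factor of those cells, was 7.40 and 61.1 at 2 months and 198 and 53.9 at 12 months. Only the old spleen of replicate 1 was high for Mef2b, and its change was 1.52 ± 0.65 (SE), adjusted p = 0.371.

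Genes of naive and resting T cells lay lower in both pairs. 11 of 13 were below 0, 6 of them without overlap, with a median of -0.67 (-0.49 in replicate 1 and -0.48 in replicate 2) and -0.14 in WT mice, and 0 passed the limma test and 7 had an unadjusted p under 0.05. Ccr7, which guides naive T cells and dendritic cells into T cell zones, was 759 and 688 at 2 months and 412 and 386 at 12 months, a log2 change of -0.83 ± 0.13 (SE), adjusted p = 0.0652. Klf2, a transcription factor that keeps T cells quiescent and circulating, was 2285 and 2751 at 2 months and 1296 and 1817 at 12 months, a change of -0.70 ± 0.11 (SE), adjusted p = 0.0677. The old spleens were lower for both. Lef1, a partner of beta-catenin in naive T cells, had 365 and 83.0 at 12 months against 707 and 207 at 2 months (-1.05 ± 0.22, adjusted p = 0.141), and Bach2, a repressor of effector fate, had 714 and 473 at 12 months against 969 and 896 at 2 months (-0.67 ± 0.13, adjusted p = 0.129). The 2 other Bach2 probe sets gave -0.772 and -0.122.

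Pan-T cell genes did not share that level. Their median over 19 genes was -0.01 (0.34 in replicate 1 and -0.36 in replicate 2). In WT mice it was -0.28, with 18 of 19 below 0, 9 of them without overlap. Cd3e in TG mice, given above, was higher with age in replicate 1 and lower in replicate 2. Genes of activated, memory and exhausted T cells had 11 of 14 above 0 and 7 higher without overlap. Their median of 0.59 was mostly that of replicate 1 (1.04 in replicate 1 and 0.13 in replicate 2). In limma 0 passed and 6 had an unadjusted p under 0.05, 5 of them higher and 1 lower. Ctla4, an inhibitory receptor, was 74.9 and 68.7 at 2 months and 282 and 95.3 at 12 months, a change of 1.05 ± 0.33 (SE), adjusted p = 0.271. Pdcd1, which encodes PD-1, was 36.2 and 43.1 at 2 months and 165 and 54.6 at 12 months, a change of 1.03 ± 0.40 (SE), adjusted p = 0.335. Ccl5, a chemokine of memory and effector T cells, was 2311 and 2576 at 2 months and 5303 and 3455 at 12 months, a change of 0.81 ± 0.30 (SE), adjusted p = 0.321. The old spleen of replicate 1 was the highest of the 4 for each of these 3 genes. Havcr2, which encodes the inhibitory receptor TIM-3, went the other way at 155 and 162 at 2 months and 73.8 and 131 at 12 months, lower in both old spleens, a change of -0.60 ± 0.20 (SE), adjusted p = 0.284.

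Natural killer and cytotoxic genes went both ways. Their median over 15 genes was 0.02 (0.24 in replicate 1 and -0.31 in replicate 2), with 8 above and 7 below 0. Ncr1, the receptor NKp46 of natural killer cells, had 24.4 and 28.9 at 12 months against 53.3 and 65.6 at 2 months, a log2 change of -0.82 ± 0.20 (SE), adjusted p = 0.189. Klra8, the Ly49H receptor, had 1.74 and 29.2 at 12 months against 132 and 64.1 at 2 months, a change of -1.95 ± 0.47 (SE), adjusted p = 0.180. Gzmm, another granzyme, had 1089 and 430.0 at 12 months against 259.9 and 312 at 2 months, above in both old spleens, a change of 1.22 ± 0.34 (SE), adjusted p = 0.217. In WT mice the list median was -0.32, and 11 of 15 genes were below 0, 8 of them without overlap. Ncr1 changed by -0.56 ± 0.20 (SE) there, Klra8 by -0.34 ± 0.47 (SE) and Gzmm by 0.67 ± 0.34 (SE).

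Dendritic cell genes were lower in both pairs and by a like amount. 13 of 15 measured were below 0 and 11 were lower without overlap. The median was -0.45 (-0.49 in replicate 1 and -0.40 in replicate 2), against 0.09 in WT mice, where 3 were higher and 5 lower without overlap. In TG mice 0 passed the limma test and 8 had an unadjusted p under 0.05. Cd209a, a lectin of conventional dendritic cells, was 142 and 162 at 2 months and 52.1 and 70.5 at 12 months, a log2 change of -1.13 ± 0.17 (SE), adjusted p = 0.0585. Siglech, a surface lectin of plasmacytoid dendritic cells, was 231 and 190.1 at 2 months and 50.9 and 106 at 12 months, a change of -1.32 ± 0.29 (SE), adjusted p = 0.158. Flt3, the receptor for the growth factor of dendritic cells and early progenitors, was 293 and 247 at 2 months and 179 and 177 at 12 months, a change of -0.55 ± 0.14 (SE), adjusted p = 0.191. Each of these 3 was lower in both old spleens. In WT mice Cd209a changed by -0.51 ± 0.17 (SE), Siglech by -0.49 ± 0.29 (SE) and Flt3 by 0.23 ± 0.14 (SE).

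**Figure D4:**
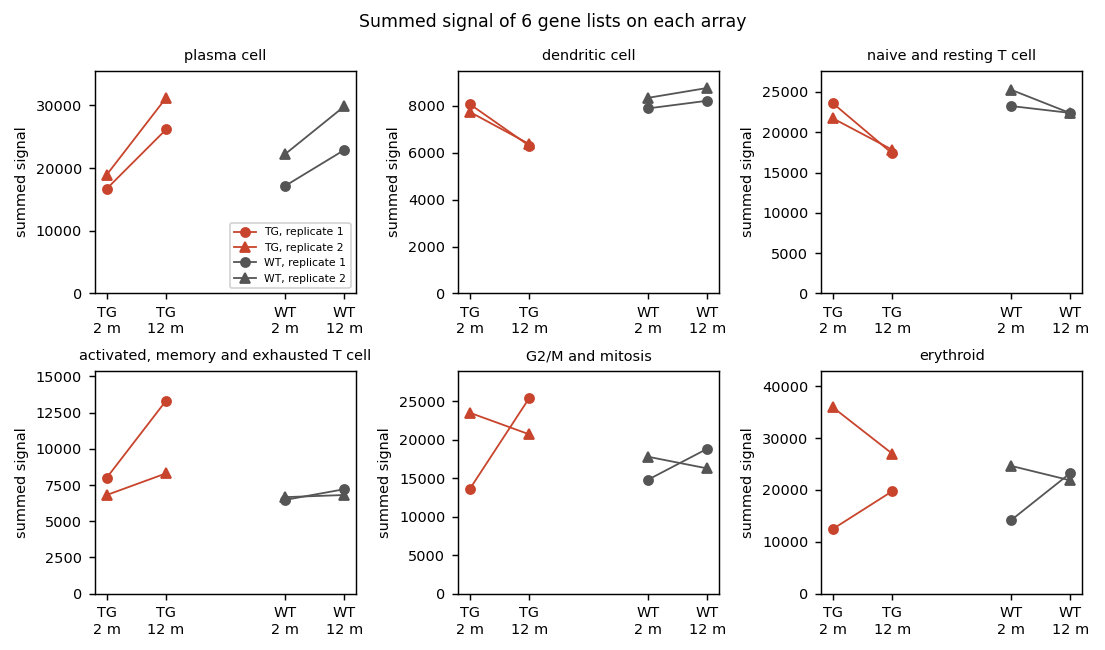
Summed signal of the measured members of 6 gene lists on each array, with lines joining the 2 and 12 month arrays of a replicate number in TG (red) and WT (grey). Plasma cell sums are higher at 12 months in both TG pairs, dendritic cell sums are lower in both, and mitotic and erythroid sums are higher at 12 months in replicate 1 and lower in replicate 2 in both genotypes.

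Macrophage genes split by mouse as B cell genes did. The median over 18 genes was -0.25 (-0.51 in replicate 1 and 0.10 in replicate 2), and 0.34 in WT mice. Vsig4 rose within a list where 12 members were below 0. Marco, a scavenger receptor of marginal zone macrophages, had 65.8 and 549 at 12 months against 777 and 863 at 2 months, with the old spleen of replicate 1 far under the other 3, a log2 change of -1.96 ± 0.58 (SE), adjusted p = 0.257. Timd4, a receptor for apoptotic cells, had 283 and 394 at 12 months against 804 and 548 at 2 months, a change of -0.96 ± 0.26 (SE), adjusted p = 0.209. Complement genes as a list had a median of 0.01 over 15 genes, and the 2 that passed were Cr2, lower, and Vsig4, higher. Among monocyte genes 11 of 12 were below 0 (median -0.20, and -0.18 in WT mice). F13a1, the factor XIII subunit of monocytes, was at -0.57 ± 0.16 (SE), adjusted p = 0.220, in TG mice.

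Stromal and endothelial genes were lower in both pairs. 18 of 22 were below 0 and 7 without overlap, with a median of -0.32 (-0.33 in replicate 1 and -0.32 in replicate 2) and -0.09 in WT mice, and 0 passed the limma test and 9 had an unadjusted p under 0.05. Cxcl13, the chemokine by which follicle stroma attracts B cells, was 2628 and 2221 at 2 months and 1363 and 1378 at 12 months, a log2 change of -0.81 ± 0.13 (SE), adjusted p = 0.0775. Ptgis, the prostacyclin synthase, was 132 and 149 at 2 months and 22.5 and 56.2 at 12 months, a change of -1.57 ± 0.25 (SE), adjusted p = 0.0702. Igfbp5, a secreted binder of insulin-like growth factors, was 268 and 225 at 2 months and 81.4 and 121 at 12 months, a change of -1.18 ± 0.24 (SE), adjusted p = 0.129. Both old spleens were below both young ones for all 3, but a second Igfbp5 probe set gave -0.373 in replicate 1 and 0.0971 in replicate 2. Stab2, the hyaluronan receptor of sinus endothelium, had a change of -0.69 ± 0.14 (SE), adjusted p = 0.129.

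Among blood-forming cells, erythroid and neutrophil lists split by pair, while platelet and progenitor lists were lower in both TG pairs. Erythroid genes had a median of 0.15 (0.57 in replicate 1 and -0.35 in replicate 2), with WT medians of 0.68 in replicate 1 and -0.18 in replicate 2, and their summed signal in TG mice was 12480 and 35900 at 2 months and 19750 and 26970 at 12 months. Platelet and megakaryocyte genes had 11 of 14 below 0 (median -0.27, with -0.33 in replicate 1 and -0.17 in replicate 2). Blood stem and progenitor genes had 10 of 14 below 0, 4 of them without overlap (median -0.16, with -0.17 in replicate 1 and -0.30 in replicate 2). Neutrophil genes had a median of 0.01 (0.29 in replicate 1 and -0.38 in replicate 2). Cxcr2, the neutrophil chemokine receptor, was 82.5 and 79.1 at 2 months and 10.9 and 25.6 at 12 months, a change of -1.53 ± 0.25 (SE), adjusted p = 0.0775, with WT mice at -1.31 ± 0.25 (SE). Exocrine pancreas genes, a sign of attached tissue, summed to 585 to 913 on 7 arrays and 13650 on the array of WT 2 months replicate 1, so that no TG array was the high one.

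Proliferation genes were higher at 12 months in replicate 1 and lower in replicate 2, in TG and in WT mice. Of 38 mitotic genes 35 had a fitted change above 0, but their median of 0.42 combined 0.99 in replicate 1 and -0.15 in replicate 2. In WT mice 32 of 38 were above 0, with medians of 0.43 in replicate 1 and -0.13 in replicate 2. The summed signal of the mitotic genes in TG mice was 13590 and 23490 at 2 months and 25380 and 20690 at 12 months. Genes of DNA replication behaved alike, with a median of 0.20 (0.61 in replicate 1 and -0.21 in replicate 2) and WT medians of 0.05 in replicate 1 and -0.16 in replicate 2. In the mitotic list 0 passed the limma test and 7 had an unadjusted p under 0.05. Mad2l1, a spindle checkpoint protein, was 343 and 315 at 2 months and 607 and 378 at 12 months, a change of 0.52 ± 0.17 (SE), adjusted p = 0.283. Rfc5, a subunit of the clamp loader, was 244 and 324 at 2 months and 409.6 and 440.5 at 12 months, a change of 0.57 ± 0.14 (SE), adjusted p = 0.199. Both were higher in each old spleen, as was Pcna, the sliding clamp, at 4982 and 4903 at 12 months against 3134 and 4412 at 2 months (0.41 ± 0.15, adjusted p = 0.312). Rfc3, another clamp loader subunit, had 185 and 107 at 12 months against 117 and 72.5 at 2 months (0.54 ± 0.18, adjusted p = 0.299). Fen1, the flap endonuclease that matures Okazaki fragments, had 738 and 1064 at 12 months against 970.1 and 1563 at 2 months, lower within both pairs, a change of -0.47 ± 0.13 (SE), adjusted p = 0.222. A second, dimmer Fen1 probe set gave 0.838 in replicate 1 and -0.169 in replicate 2, so the direction of Fen1 differs between its probe sets.

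Targets of p53 were higher in both pairs. 12 of 14 measured were above 0, 6 of them without overlap, and 1 was lower without overlap. The median was 0.28 (0.24 in replicate 1 and 0.37 in replicate 2) and 0.08 in WT mice. In limma 0 passed and 6 had an unadjusted p under 0.05, 5 of them higher and 1 lower. Cdkn1a, which encodes the cell cycle inhibitor p21, was 96.1 and 132 at 2 months and 243 and 339 at 12 months, a log2 change of 1.23 ± 0.21 (SE), adjusted p = 0.0863. Zmat3, an RNA-binding p53 target, was 108 and 124 at 2 months and 261 and 209 at 12 months, a change of 0.92 ± 0.17 (SE), adjusted p = 0.114. Ccng1, cyclin G1, was 987 and 803 at 2 months and 1484 and 1166 at 12 months, a change of 0.55 ± 0.13 (SE), adjusted p = 0.164. For all 3, both old spleens exceeded both young ones. In WT mice 12 of 14 targets were above 0 as well, 4 of them without overlap. Cdkn1a changed by 0.40 ± 0.21 (SE) there, Zmat3 by 0.29 ± 0.17 (SE) and Ccng1 by -0.29 ± 0.13 (SE).

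Growth and translation genes showed small positive values. Ribosome biogenesis genes had 24 of 30 above 0, 10 without overlap, a median of 0.16 (0.34 in replicate 1 and 0.02 in replicate 2) and -0.09 in WT mice. Eif4e, the cap-binding factor of translation, was 675 and 664 at 2 months and 1108 and 918 at 12 months, higher in both old spleens, a change of 0.58 ± 0.11 (SE), adjusted p = 0.129. A second, dimmer Eif4e probe set gave 0.343 in replicate 1 and -0.218 in replicate 2. Cytosolic ribosomal proteins had all 21 measured members above 0 at a median of 0.19 (0.02 in replicate 1 and 0.32 in replicate 2), 3 of them without overlap. In the MYC, MAX and MXD family the median was -0.07, and the member that stood out was Mycl, at 179 and 58.0 at 2 months and 28.2 and 14.9 at 12 months. Both old spleens were lower for Mycl, with a change of -1.70 ± 0.27 (SE), adjusted p = 0.0703.

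Interferon response genes were lower in both pairs, and in WT mice as well. 19 of 25 were below 0, 11 of them without overlap, and 4 were higher without overlap. The median was -0.37 (-0.26 in replicate 1 and -0.41 in replicate 2) and -0.26 in WT mice. In limma 0 passed and 11 had an unadjusted p under 0.05, 10 of them lower and 1 higher. Ifitm3, a membrane protein that blocks virus entry, was 3709 and 3278 at 2 months and 2260.3 and 2409.6 at 12 months, a change of -0.58 ± 0.13 (SE), adjusted p = 0.165. Ifit3, an interferon-induced RNA-response protein, had 194 and 219.7 at 12 months against 366 and 298 at 2 months, a change of -0.64 ± 0.15 (SE), adjusted p = 0.171. Both were lower in each old spleen.

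Leukaemia and lymphoma genes had a median of 0.14 over 25 genes. Sox4, a transcription factor of lymphoid precursors, had 428 and 239.9 at 12 months against 788 and 414 at 2 months, lower within each pair though the ages overlap, a change of -0.80 ± 0.13 (SE), adjusted p = 0.0702. Pim1, a survival kinase, had 991 and 797 at 12 months against 554 and 654 at 2 months, a change of 0.55 ± 0.15 (SE), adjusted p = 0.205. The HMG chromatin list, in which neither Hmga1 nor Hmga2 was measured, had a median of 0.07 (0.31 in replicate 1 and -0.24 in replicate 2) over 10 genes. In limma 0 passed and 1 had an unadjusted p under 0.05. Tox2, its member with the smallest p, was 278 and 252 at 2 months and 1084 and 335 at 12 months, high in the old spleen of replicate 1, a change of 1.15 ± 0.40 (SE), adjusted p = 0.304.

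**Figure D5:**
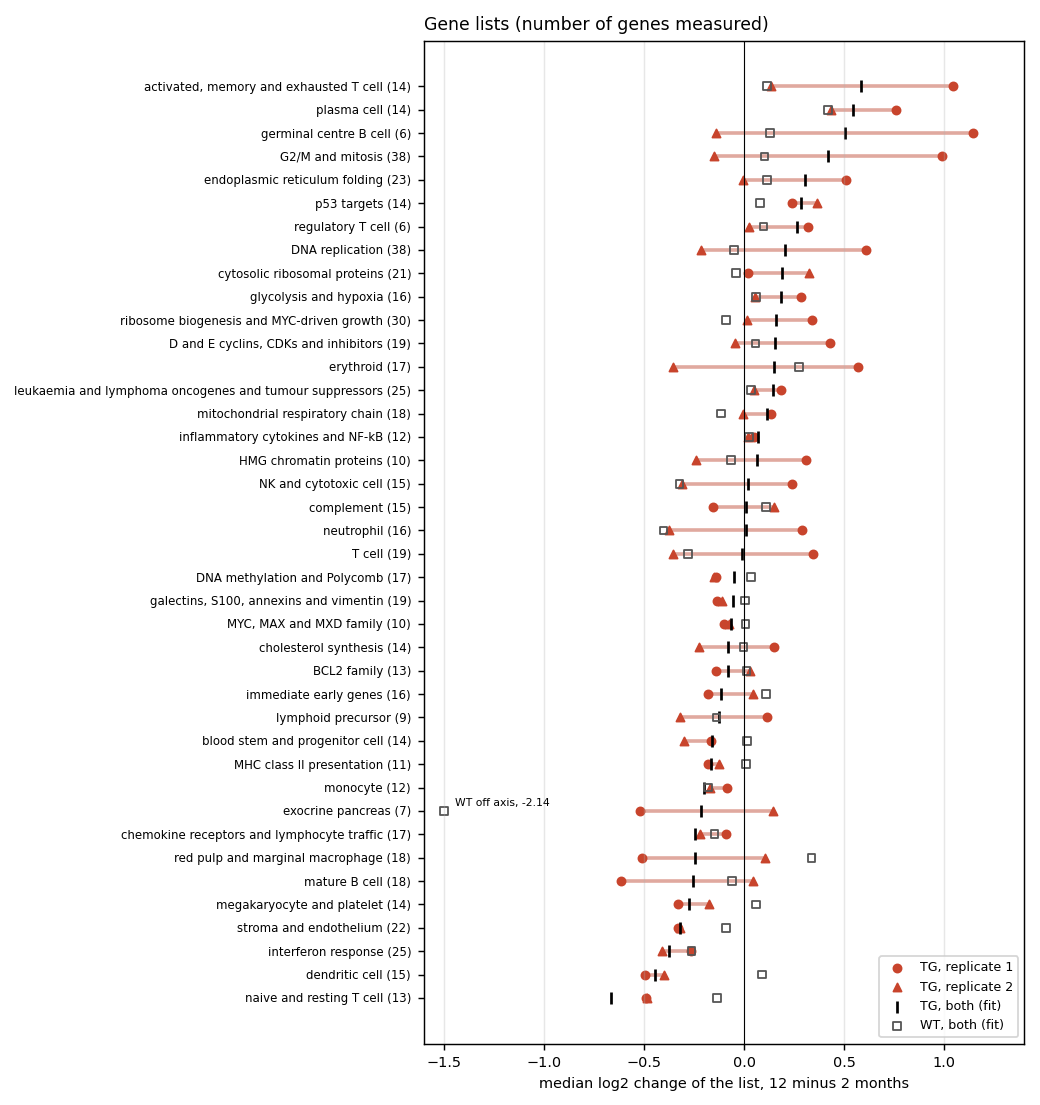
Median log2 change from 2 to 12 months of each gene list with at least 5 measured genes, in TG replicate 1 (circle), TG replicate 2 (triangle), both TG pairs in the fit (vertical tick) and WT (open square; for exocrine pancreas the WT value of -2.14 is drawn at the axis edge). Plasma cell genes lie above 0 and naive T cell, dendritic cell and stromal genes below 0 in both TG pairs, whereas mitotic and germinal centre genes lie far above 0 in replicate 1 and below 0 in replicate 2.

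The remaining lists had medians between -0.25 and 0.26 in TG mice. Chemokine receptor genes had a median of -0.25, with Ccr9 the only one past the test. Galectins, S100 proteins, annexins and vimentin had a median of -0.05, and Lgals1 passed. S100a4, a calcium-binding protein of motile cells, had 743 and 879.9 at 12 months against 1251 and 1302 at 2 months, lower in both old spleens, a change of -0.65 ± 0.11 (SE), adjusted p = 0.0863. In glycolysis and hypoxia, Slc2a3, a glucose transporter, had 428 and 729 at 12 months against 761 and 1152 at 2 months, a change of -0.73 ± 0.11 (SE), adjusted p = 0.0702, beside a list median of 0.18. Tpi1, triosephosphate isomerase of the same list, had 1093 and 759 at 12 months against 676 and 587 at 2 months, a change of 0.52 ± 0.13 (SE), adjusted p = 0.185.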

How the data were processed

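Gene expression was measured on 8 arrays, 1 per mouse, in 4 groups of 2. The deposited values are probe set intensity on a linear scale, made with GCOS 1.4 and MAS5 per the submitters' processing notes; the build behind the probe design is not given in the sources used here. No log, floor or between-group correction was visible. Analysis used log2(signal + 16). Probe sets below the median mean value (under a mean signal of 45.3) were dropped, leaving 22551, and the brightest probe set with 1 gene symbol stood for each of 11189 genes. This gives precedence to the brightest probe set even where others differ, and the offset understates changes of dim genes.

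The model held a mean per group and a term for the replicate number, over the 8 arrays together, using limma 3.58.1 under R 4.3.3 (lmFit, eBayes with an intensity trend, 3 residual and 4.84 prior degrees of freedom). P-values are two-sided, adjusted by Benjamini-Hochberg over all genes, with a threshold of 0.05. The block follows the labels' biologic replicate numbers. Differences between replicate 1 and replicate 2 within a group ran alike in all 6 pairs of groups (correlations 0.464 to 0.654). Precision is limited by having 2 arrays in each group. The code was tested on simulated data.

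The comparison and the gene lists were chosen with earlier results of these data known. Named genes are those past the test with the largest change and no overlap of the TG arrays (up to 12 in each direction), the 4 members of a list with the smallest p, and the 4 per direction with the smallest p for the difference between genotypes. Immunoglobulin segments, clones and predicted genes were counted but not named among the top genes. Those named here, with LOC664787, Cd79a, Cd3e, Igha, Igk, Ighm and Hspa5, fall outside that rule and were chosen after their values were seen. Alternatives tried were the block, the samples in the fit, the variance trend, the offset (1 and 64), the filter, quantile and cyclic loess scaling, the choice of probe sets, and each array left out.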

Additional observations from a re-analysis of the deposited data

Results flagged for a closer look

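For 3 gene lists the medians of both TG pairs had one sign and those of both WT pairs the other, some of them close to 0. The difference between genotypes was not tested for any of these lists. The median of the age effect in TG minus that in WT was 0.26 for ribosome biogenesis genes, 0.21 for cytosolic ribosomal proteins and -0.10 for DNA methylation and Polycomb genes. Over all genes tested it was -0.05. By pair, ribosome biogenesis medians were 0.34 and 0.02 in TG mice and -0.18 and -0.06 in WT mice. Those of ribosomal proteins were 0.02 and 0.32 in TG mice and -0.03 in each WT pair. DNA methylation and Polycomb genes gave -0.14 and -0.15 in TG mice and 0.06 and 0.03 in WT mice. Groups of 2 arrays are too small for a check of single arrays far from the rest.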

How the results depend on the processing

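With 2 mice per group the calls depend on how the spread is estimated. Of the 21 genes that passed in TG mice, fitting without the replicate block left 1, while the WT contrast and the difference between genotypes had 0 with and without that pairing. Fitting the 4 TG arrays alone gave 0 genes, no intensity trend 4, no filter on dim probe sets 7, and probe sets without a suffix 13. Leaving out single arrays gave 0 to 372 genes in TG mice, 0 to 7 in WT mice and 0 to 40 for the difference. Counts under the other offsets and scalings, the stricter filter and the mean of probe sets lay between 16 and 24. The cause of these differences was not tested.

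Of 41 list medians, 17 changed sign under at least 1 alternative, and in 14 of these the TG pairs already had opposite signs. With arrays left out in turn, medians ran from -0.060 to 1.07 for germinal centre, -0.46 to 0.086 for macrophage, -0.42 to 0.63 for erythroid, -0.67 to 0.49 for neutrophil, -0.36 to 0.27 for cytotoxic, -0.49 to 0.43 for T cell, -0.66 to 0.67 for exocrine pancreas, -0.012 to 0.86 for mitotic and -0.074 to 0.46 for replication genes. In the other 3 lists the TG pairs had the same sign. The mast cell list, with 2 measured genes, gave -0.089 with the stricter filter, which left 1 of them. MYC, MAX and MXD genes gave 0.037 with the mean of probe sets, and inflammatory genes ran from -0.069 to 0.21 when arrays were left out. Under these alternatives 77 single genes were followed. Among them, Cd3e ran from -0.96 to 0.56 and Cd79a from -0.85 to 0.36 when arrays were left out. The others of the 77 kept their sign in all alternatives that measured them. Further genes, such as those given values only under other observations, were not followed. Dim genes are limited by signal over background, since over 25.0% of probe sets were under 16 on each array.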

Other observations

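Genes that moved in a single TG pair were looked up after the values were seen. Over 4-fold changes in replicate 1 with less than 2-fold in replicate 2 were found for 14 genes, 11 higher and 3 lower. They include Ccl8, a monocyte chemokine, with a log2 change of 3.49 against 0.67, Socs3, a feedback inhibitor of cytokine signalling, with 2.21 against 0.02, and Marco, with -3.28 against -0.64. In replicate 2 alone 10 genes passed the same limits, 9 higher and 1 lower. Among these, Ebi3, a cytokine subunit of interleukin-27, changed by 2.30 against -0.27 in replicate 1, Hpse, the heparanase, by 2.40 against 0.87, and Plk2, a polo-like kinase induced by p53, by 2.28 against -0.54. Over both pairs none of these 24 genes passed the limma test (adjusted p from 0.129 to 0.579), and 17 had an unadjusted p under 0.05.

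Over 2-fold changes in both TG pairs without passing the test were seen for Psrc1, a spindle protein and p53 target (log2 changes of 1.31 and 2.61, adjusted p = 0.0601 in limma), for Plscr1 (1.02 and 1.13) and for Nes, which encodes the intermediate filament nestin (1.28 and 1.17). On the lower side were Hp, haptoglobin (-1.41 and -1.66), and Slfn4, an interferon-induced gene of myeloid cells (-1.62 and -1.43). Promoter windows of the 13 genes past the test with a window were 52.3% A or T at the median, against 39.0% over 9069 tested genes with one. The median was 45.2% for the 6 of these that rose and 54.0% for the 7 that fell, few genes each, and the difference was not tested.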
